A study of Mus musculus with 3 samples.

Results

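The nuclear-encoded subunits of oxidative phosphorylation were examined in cytosolic RNA of mouse macrophages. Members were the rows of the gene table whose symbol begins with Ndufa, Ndufb, Ndufc, Ndufs, Ndufv, Uqcr, Cox4 to Cox8 or Atp5 and that have a protein_coding transcript. Assembly factors named Ndufaf and symbols ending in -ps were left out. The rule picked 82 rows, with 81 symbols, of 55536 mouse gene rows and of 21888 nuclear-encoded genes with a protein_coding transcript. It used names and annotation only, no measured value. By symbol, 38 rows belong to complex I, 8 to complex III, 18 to complex IV and 18 to complex V.

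The cells were bone-marrow-derived macrophages of C57BL/6J mice. All were given 100 ng/ml Lipid A, the part of bacterial lipopolysaccharide that the receptor TLR4 senses, for 12 h. After a washout of 12 h they met 100 ng/ml Lipid A again for 120 min. Ribosomal RNA was depleted and total RNA of the cytosolic fraction was sequenced in 3 libraries labelled as biological replicates. There is 1 group and no unstimulated control, so all values describe this state, no comparison between conditions was possible and no test was run. The libraries share 1 donor entry, that of the strain, with no age or sex recorded, so their spread may be technical.

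Oxidative phosphorylation makes most of the ATP of resting cells. Complex I takes electrons from NADH, complex III passes them through cytochrome c to complex IV, which reduces oxygen, and complex V uses the proton gradient they build to make ATP. The subunits come from nuclear genes translated in the cytosol and from mitochondrial genes. In macrophages, strong Toll-like receptor signals are known to shift ATP production toward glycolysis.

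The libraries held 29273913, 64712406 and 37602753 expected counts on mouse genes in replicates 1, 2 and 3, of which 106109, 239357 and 136767 fell on members. All 8 macrophage markers checked were detected, with Lyz2 highest at 2751 TPM, and none of the B cell, T cell, fibroblast, erythroid or muscle markers reached 1 TPM. Of the endothelial markers, 1 of 3, Kdr, did so with 7.09, 3.24 and 2.29 TPM, while Cdh5 and Pecam1 stayed below 1 TPM. Of the neutrophil markers, 2 of 4 did so, S100a8 at a mean of 2.08 and S100a9 at 3.48 TPM, while Ly6g and Mpo were at or near 0. Their part in the members' levels was not tested. TPM, a share of all transcripts, is a level corrected for transcript length. Values are TPM of the deposited gene table, given for replicates 1, 2 and 3 in that order or as mean ± SD (n = 3). Nuclear-encoded protein-coding genes held 32.3%, 26.4% and 26.7% of all TPM, so that a gene at an equal share of the protein-coding pool has a higher TPM in replicate 1. Where libraries are compared, TPM was therefore rescaled to the same total over these genes (rescaled TPM). In bulk RNA, how many cells hold a transcript and how much each cell holds cannot be told apart.

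Nearly all subunit genes were expressed, and their levels spread over a wide range. Of the 82 members, 74 reached 1 TPM in all 3 libraries, against 39.3% of all nuclear-encoded protein-coding genes. A level of 100 TPM in all libraries was reached by 7 members, against 1.69% of all such genes. Of these 7, 6 were complex IV subunits and 1 belonged to complex V. The members' median was 37.6, 33.7 and 31.8 TPM in the 3 libraries, or 34.3 ± 2.97. Protein-coding genes at a mean of 10 TPM or more had a median of 23.3 ± 2.47 TPM. Together the members made up 1.364%, 1.369% and 1.382% of protein-coding TPM. Complex V genes held 0.424 ± 0.00686%, complex I genes 0.397 ± 0.00240%, complex IV genes 0.397 ± 0.00748% and complex III genes 0.155 ± 0.00376%. Of this TPM, 83.4% lay on protein_coding transcripts for complex V, 86.6% for complex I, 96.4% for complex IV and 94.7% for complex III, so which complex held the most depends on whether other transcripts are counted.

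Complex I genes, although the most numerous, stood lowest. Their median was 27.6, 25.3 and 24.9 TPM, or 25.9 ± 1.47. Complex III genes had a median of 65.6, 54.7 and 55.0 TPM, or 58.4 ± 6.20. Complex IV genes had 66.8, 51.7 and 50.5 TPM, or 56.4 ± 9.04, and complex V genes 74.7, 54.6 and 58.3 TPM, or 62.5 ± 10.7. In each library the median of each of these 3 complexes lay above that of complex I. On the log2(TPM + 1) scale the difference from complex I was 1.13 ± 0.07 for complex III, 1.08 ± 0.14 for complex IV and 1.23 ± 0.16 for complex V, positive in 3 of 3 libraries. The median TPM of complexes III, IV and V differed from each other by less than their SD over libraries. That SD includes the scaling that all complexes of a library share, and complex V lay above complex IV in each library. In rescaled TPM the medians were 219 ± 11.9 for complex V and 197 ± 8.74 for complex IV. The complex IV median depends on silent isoforms: over the 12 genes at 1 TPM or more it was 107 TPM.

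**Figure D1:**
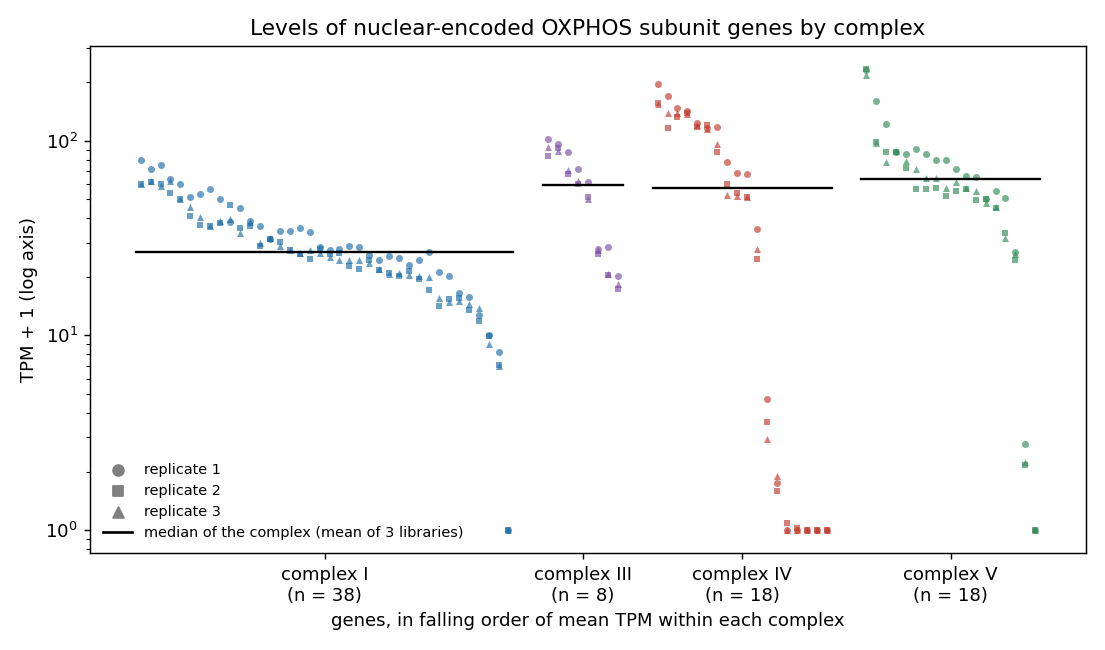
Levels of the 82 members, with 1 column of points per gene, ordered by mean within each complex; the vertical axis is TPM + 1 on a log scale, markers are the 3 replicates and black lines the median of each complex. Most complex I genes sit below the medians of the other complexes, while 6 complex IV genes and Atp5b exceed 100 TPM in all libraries and 8 genes lie near 0.

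In complex I the catalytic core, the subunits that bind flavin and iron-sulfur clusters and pass electrons to ubiquinone, stood among the lower genes. Its 7 nuclear-encoded genes had a median of 23.8 ± 3.00 TPM, against 28.7 ± 3.66 TPM for the 31 accessory subunit genes, and the core median was the lower one in 3 of 3 libraries. Ndufv1, which carries the flavin that accepts electrons from NADH, had 9.07, 8.91 and 8.0 TPM. Ndufs1, with iron-sulfur clusters of the same arm, had 11.7, 10.9 and 12.9 TPM. Ndufs3, Ndufs7, Ndufs8 and Ndufv2 lay between 21.7 and 28.5 TPM on average, so the core was not uniform.

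The highest complex I genes were accessory subunits, which surround the core. Ndufa3 had 78.4, 58.7 and 58.8 TPM, Ndufb8 70.5, 60.1 and 61.3 TPM, and Ndufc2 74.0, 58.9 and 57.9 TPM. Ndufa1, an X-linked accessory subunit of the membrane arm, had 62.6, 52.7 and 61.3 TPM. These 4 overlapped in their ranges. On protein_coding transcripts alone Ndufa3 had 38.4 ± 3.65 TPM, below Ndufc2 with 63.6, Ndufb8 with 61.8 and Ndufa1 with 58.9 TPM, so its first place holds for the gene total only. Ndufa3 is found at mm10 chr7:3617373-3620327 on the plus strand, and Ndufa1 at chrX:37187588-37191163 on the minus strand. Ndufab1, the mitochondrial acyl carrier protein, which also serves lipoic acid synthesis, had 24.6, 19.9 and 19.8 TPM. Ndufa13, also known as GRIM-19 for its part in interferon-induced cell death, had 27.6, 21.7 and 23.6 TPM, close to the median of the complex. Ndufs6, which is needed to finish the NADH-binding arm, had 30.2, 30.5 and 30.8 TPM, which is 93.3, 116 and 115 in rescaled TPM. On that scale Ndufa4 was the most even of the complex with 183, 187 and 185. Ndufa9 and Ndufa10, which sit near the joint of both arms and on the membrane arm, had 14.7 ± 0.798 and 20.7 ± 1.3 TPM. Of the 37 expressed genes of the complex, 35 had at least 10 TPM in all libraries. Lowest of the expressed complex I genes was Ndufb4 with 7.25, 6.06 and 5.97 TPM, a value that a copy elsewhere in the genome bears on, as described further on.

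In complex III the small subunits stood above the large ones in TPM. Uqcrh, the hinge protein that helps bind cytochrome c1, had 101, 82.7 and 91.9 TPM. Uqcrb, known as the ubiquinone-binding protein, had 95.4, 91.3 and 87.6 TPM. Uqcrq had 86.8, 66.1 and 69.7 TPM and Uqcr10 71.0, 59.0 and 60.8 TPM. The Rieske iron-sulfur protein gene Uqcrfs1 had 27.5, 19.4 and 19.7 TPM. The core proteins Uqcrc1 and Uqcrc2 had 26.3 ± 0.842 and 17.6 ± 1.54 TPM, and Uqcrc2 was the lowest of the complex. The 3 large subunits did not overlap in any library with the 5 small ones, of which Uqcr11 was lowest with 53.2 ± 6.03 TPM. By TMM-scaled CPM, with no length correction, Uqcrc1 was instead the highest with 65.4 and Uqcrc2, with 50.8, lay above Uqcrq, Uqcr10 and Uqcr11. Cyc1, which encodes cytochrome c1 of the same complex but is no member by its name, had 17.0, 15.3 and 14.8 TPM.

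Complex IV held 6 of the 7 genes above 100 TPM. Cox4i1, the largest nuclear-encoded subunit, had 195, 155 and 153 TPM (mm10 chr8:120668222-120674207, plus strand). Cox5a had 170, 115 and 137 TPM, Cox8a 147, 132 and 137 TPM, and Cox6b1 141, 138 and 137 TPM. All 4 surround the mitochondrial-encoded catalytic core and none carries a metal centre for electron transfer. Cox6c and Cox6a1 followed with 119 ± 3.07 and 116 ± 2.96 TPM, and Cox7c with 116, 86.8 and 95.8 TPM. Cox5a, Cox8a and Cox6b1 did not differ beyond their spread. Cox5b, which binds zinc, had 56.9 ± 8.91 TPM.

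Complex V had the highest single member. Atp5b, the catalytic beta subunit of the F1 head, had 230, 233 and 217 TPM (mm10 chr10:128083273-128090391, plus strand). Its partner in the head, Atp5a1, the alpha subunit, had 86.7, 86.2 and 87.6 TPM. Alpha and beta are known to enter the enzyme in equal numbers, while at gene level Atp5b TPM lay above Atp5a1 TPM in all 3 libraries. The other head and stalk genes were closer to Atp5a1, with Atp5c1 (gamma) at 55.7 ± 8.02, Atp5d (delta) at 48.3 ± 1.46 and Atp5e (epsilon) at 121, 86.7 and 76.6 TPM. Stator genes lay in the same range, with Atp5o (the oligomycin-sensitivity protein) at 70.6, 54.1 and 60.3 TPM, Atp5f1 (subunit b) at 65.1, 55.6 and 55.9 TPM and Atp5h (subunit d) at 78.1 ± 6.63 TPM. Small membrane subunits spread around these values, with Atp5mpl at 90.01, 55.2 and 70.5 TPM, Atp5k (subunit e) at 66.1 ± 11.6 TPM and Atp5j2 (subunit f) at 47.8 ± 5.82 TPM. Atp5l, subunit g of the membrane part, had 158, 97.0 and 96.1 TPM. Atp5s, a protein of the coupling factor B type that carries an Atp5 symbol, had 1.78, 1.16 and 1.25 TPM and was the lowest of the expressed complex V genes.

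The level per length and the level per gene read gave different orders. Over the 74 members at 1 TPM or more, the Spearman correlation of transcript length with TPM was -0.49, against -0.16 over 8956 protein-coding genes. With TMM-scaled CPM, library-scaled counts that are not corrected for length, it was 0.31 for members and 0.33 for all genes. Both are descriptions over genes of the same 3 libraries, and length enters TPM itself. The complex I core genes were longer (1269 bases at the median) than the accessory genes (646 bases), and by TMM-scaled CPM their order turned round, with medians of 36.9 ± 1.86 for the core and 21.2 ± 0.801 for the accessory genes. The part of the order that comes from length correction was not tested.

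**Figure D2:**
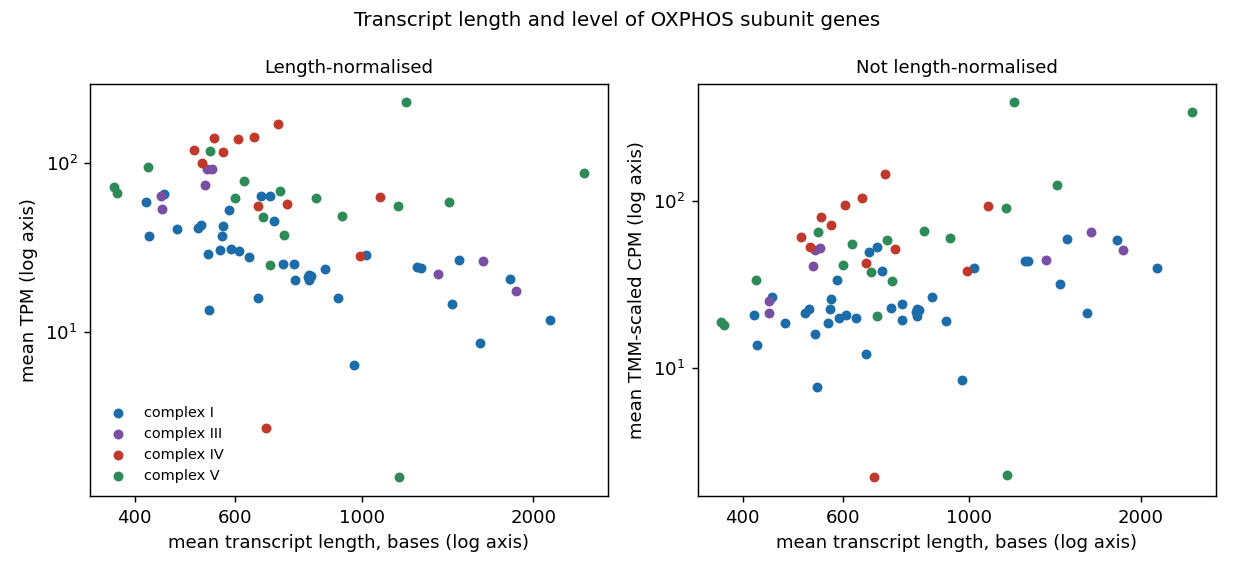
Mean transcript length (horizontal, bases, log axis) against mean level (vertical, log axis) of the 74 members at 1 TPM or more, coloured by complex, with TPM on the left and TMM-scaled CPM on the right. Longer members stand lower in TPM (Spearman correlation -0.49) and higher in CPM (0.31).

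Several complex IV and V subunits exist as paralogs, one used in most tissues and others known from heart, muscle, lung or testis. In 5 of the 6 complex IV families the widely used form took nearly the whole. Cox4i1 stood at 168 ± 23.4 TPM and Cox4i2, the form known from lung, at 0, 0.02 and 0 TPM, which is 1 expected count in all. Cox6b1 stood at 139 ± 2.38 TPM and the testis form Cox6b2 at 0, 0.09 and 0 TPM. Cox8a stood at 139 ± 7.58 TPM, while Cox8b and Cox8c had no expected count. The second quantification listed Cox8b at 0, 0 and 0.0771 TPM and Cox8c at 0. Cox7b stood at 28.2 ± 5.43 TPM and Cox7b2 had no expected count. For Cox7b2, Cox8b and Cox8c, 3 counts, the limit that a count of 0 allows, would have been 0.0751 to 0.457 TPM, depending on gene and library. The muscle form Cox6a2 was detected at 3.74, 2.58 and 1.93 TPM, 2.32 ± 0.756% of the Cox6a pair, with Cox6a1 45.2 ± 14.0 times higher. All 4 muscle markers lay at or under 0.01 TPM.

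The Cox7a family was divided. Cox7a2 had 66.4, 50.6 and 50.4 TPM and Cox7a2l, which is known to join complexes III and IV in supercomplexes, had 76.4, 59.1 and 51.8 TPM. Cox7a2l lay above Cox7a2 in each library, by less than the spread between libraries. The muscle form Cox7a1 had 0.75, 0.59 and 0.89 TPM from 6, 13 and 11 counts, with Cox7a2 77.0 ± 17.7 times higher. Ndufa4, named as a complex I subunit and since shown to belong to complex IV, had 59.2, 49.2 and 49.4 TPM. Its hypoxia-induced paralog Ndufa4l2 had no expected count, where 3 counts would have been 0.119, 0.0445 and 0.0794 TPM. Its other paralog AA467197, an inducible form also known as Nmes1, is no member by its name and had 11.5, 8.66 and 4.29 TPM. AA467197 varied more between libraries than Ndufa4, with its lowest value in replicate 3.

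The rotor ring of complex V is built from 1 protein made from 3 genes, Atp5g1, Atp5g2 and Atp5g3, whose products differ in the targeting sequence that is removed on import. Atp5g3 had 84.3, 55.4 and 63.6 TPM, Atp5g2 49.6, 32.6 and 30.5 TPM and Atp5g1 25.7, 23.4 and 25.3 TPM. This order held in each library, with 51.9 ± 1.92% of the sum on Atp5g3, 28.6 ± 2.82% on Atp5g2 and 19.4 ± 2.90% on Atp5g1. Their mature proteins are known to be the same, but the bases that encode them are not. The last 90 coding bases before the stop codon are shown because they hold the differences that tell reads of the 3 genes apart, with positions that are not the same in all 3 in capitals. They come from the GENCODE M21 transcripts of Atp5g1 (mm10 chr11:96068852-96075670), Atp5g2 (chr15:102662864-102672352) and Atp5g3 (chr2:73908447-73911326), all on the minus strand.
Atp5g1: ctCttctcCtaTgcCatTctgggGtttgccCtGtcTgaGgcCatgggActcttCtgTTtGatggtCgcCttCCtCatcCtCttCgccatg
Atp5g2: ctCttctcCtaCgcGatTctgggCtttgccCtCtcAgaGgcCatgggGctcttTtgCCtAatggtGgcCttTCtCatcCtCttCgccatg
Atp5g3: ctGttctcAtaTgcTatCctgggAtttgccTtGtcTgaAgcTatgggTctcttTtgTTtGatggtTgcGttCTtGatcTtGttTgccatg
Over the last 225 coding bases the identity was 84.9% for Atp5g1 with Atp5g2, 80% for Atp5g1 with Atp5g3 and 78.7% for Atp5g2 with Atp5g3. The coding sequences shared no run of 31 bases. The order holds for the first quantification only: in the second, Atp5g2 had 1.89 TPM and lay below Atp5g1 with 11.7 ± 1.36 TPM and Atp5g3 with 31.5 ± 2.12 TPM, which a copy of Atp5g2 described further on bears on.

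**Figure D3:**
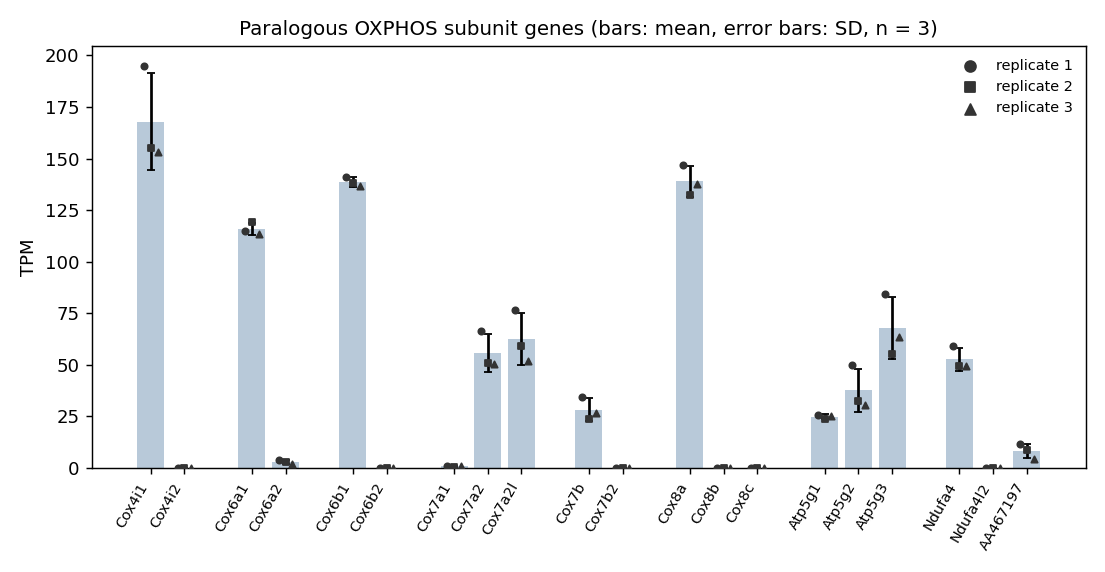
TPM of paralogous subunit genes; bars are means of 3 libraries, error bars SD and points the replicates. Cox4i2, Cox6b2, Cox7b2, Cox8b, Cox8c and Ndufa4l2 lie at or near 0, whereas Cox7a2 with Cox7a2l and the 3 Atp5g genes share their family's level.

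Not all of the abundance lay on transcripts that can make the subunit. Of the members' TPM, 89.3 ± 0.584% was assigned to protein_coding transcripts, 5.24 ± 0.559% to processed transcripts without a reading frame, 3.09 ± 0.256% to retained-intron transcripts and 2.36 ± 0.165% to nonsense-mediated decay transcripts. For 13 of 72 members at a mean of 5 TPM or more, less than 80% lay on protein_coding transcripts, against 18.1% of all such genes, a share near the members' own. The 13 were 9 complex I genes, 3 complex V genes and Cox5b.

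Atp5b was the one with the most abundance off its coding transcripts. Its coding transcripts had 119, 113 and 109 TPM, and Atp5b-206, a processed transcript of 478 bases, had 93.1, 118 and 92.2 TPM. Without noncoding transcripts Atp5b, at 114 ± 5.08 TPM, thus lay below Cox4i1 at 150 ± 24.3 TPM and Cox5a at 140 ± 27.4 TPM. Cox8a at 139 and Cox6b1 at 138 TPM also lay above it, as did, by less, Cox6c at 119 and Cox6a1 at 115 TPM. In the second deposited quantification Atp5b-206 took 32.7 of 91.2 TPM. By TMM-scaled CPM, in which short transcripts weigh less, Atp5b stayed highest of all members with 390, next to Atp5a1 with 342.

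Ndufa5 had the lowest coding share. Its gene level was 37.4, 45.6 and 38.7 TPM, with 7.49, 7.14 and 6.97 TPM on coding transcripts and 24.1 ± 3.47 TPM on Ndufa5-204, a processed transcript. Atp5j, coupling factor 6, had 24.8, 11.9 and 15.8 TPM on coding transcripts and 43.4 ± 7.96 TPM on the retained-intron transcript Atp5j-208. For Ndufs4, whose loss causes Leigh-like disease in mice, 5.37 ± 0.431 TPM lay on coding transcripts and 11.1 ± 2.69 TPM on the nonsense-mediated decay transcript Ndufs4-202. Atp5f1 had 25.4 ± 4.68 TPM on coding transcripts and 32.3 ± 0.953 TPM on the nonsense-mediated decay transcript Atp5f1-203. These splits are estimates from short reads that the transcripts of a gene largely share. With coding transcripts alone the members' median was 28.9 TPM and that of complex I 23.4 TPM.

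**Figure D4:**
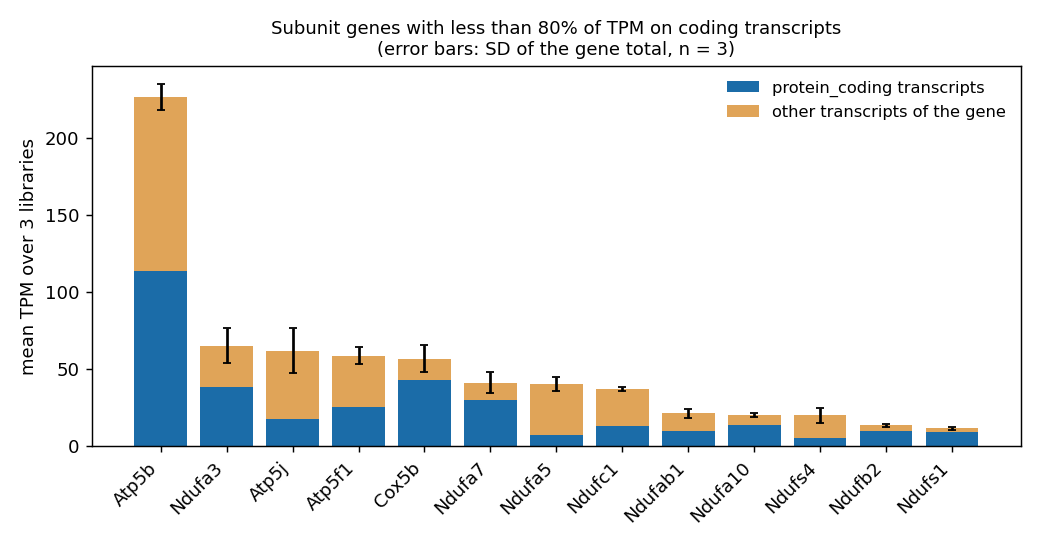
The 13 members at a mean of 5 TPM or more with less than 80% of their TPM on protein_coding transcripts, in order of gene TPM; blue is the mean TPM of coding transcripts, orange that of all other transcripts of the gene, and error bars are the SD of the gene total (n = 3). Atp5b has the largest noncoding part in TPM, and Ndufa5, Ndufs4 and Atp5j the smallest coding shares.

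Some subunit genes have copies elsewhere in the genome, and a few of these were listed at sizeable levels. Whether their counts come from RNA of the copy or of the member was not tested. Annotated genes counted as copies when they shared at least 100 runs of 31 bases with a member and these made up at least 50% of the copy. The shared part ran from 52.6% to 100%, so not all are near-identical. By this rule 16 members had 24 copies, of which 5 reached a mean of 1 TPM, and the sum of member and copies was over 1.1 times the member alone for Cox7c, Ndufb4 and Atp5g2. The 24 include Gm20538, which is not elsewhere: it overlaps Ndufb8 on the same strand over 134 exon bases and had 0 TPM. The share of all genes with such copies was not computed. Reads inside such a stretch cannot be assigned to 1 gene by sequence.

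Ndufb4, an accessory subunit of the complex I membrane arm, was the clearest case. Ndufb4c, listed as a processed pseudogene at mm10 chr15:73809507-73809896 on the minus strand, is 390 bases long and identical to the whole Ndufb4 coding sequence. It had 35.1, 26.6 and 28.8 TPM, against 7.25, 6.06 and 5.97 TPM for Ndufb4 (chr16:37647170-37654453, minus strand). The sum was 36.6 ± 5.07 TPM, above the complex I median, with 82.4% of it on the copy. In the second quantification the copy held 79.2% of the sum. The start of the coding sequence is shown because all of these bases are the same in both genes.
Ndufb4, coding bases 1 to 90: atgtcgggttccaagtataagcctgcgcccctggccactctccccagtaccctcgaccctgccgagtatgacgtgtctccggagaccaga

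Cox7c, a small subunit of complex IV, has a copy that covers nothing but its coding sequence. Gm12338, a processed pseudogene at mm10 chr11:75599763-75599954 on the minus strand, is 192 bases long and identical to all of it. The whole shared sequence, from the start to the stop codon of Cox7c (chr13:86044816-86046904, minus strand), reads as follows.
Cox7c: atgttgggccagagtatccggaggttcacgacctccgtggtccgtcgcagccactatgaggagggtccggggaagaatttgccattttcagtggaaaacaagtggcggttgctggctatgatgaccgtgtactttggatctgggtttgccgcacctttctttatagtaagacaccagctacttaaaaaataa
The copy was listed at 86.4, 188 and 157 TPM from 73.3, 437 and 194 expected counts, since its effective length, the number of positions where a fragment can start, was only 18.5 bases. Cox7c itself had 116, 86.8 and 95.8 TPM. In the second quantification, whose TPM run lower (members' median 17.0 against 34.3), the copy had 25.8 ± 18.2 TPM and Cox7c 47.5 TPM. After rescaling, Cox7c alone had a log2 ratio of the second to the first of -0.03. The copy held 57.7% of the sum with Cox7c in the first quantification and 32.9% in the second. The copy's TPM thus rests on few counts and a very short effective length.

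Atp5g2 was the member on which the quantifications differed most. Gm10175, a transcribed processed pseudogene of 645 bases at mm10 chr7:23946646-23947290 on the minus strand, shares all of its 31-base runs with Atp5g2. In the first quantification Gm10175 had 15.8, 9.63 and 16.0 TPM and Atp5g2 49.6, 32.6 and 30.5 TPM. In the second, Gm10175 had 24.5 ± 2.26 TPM and Atp5g2 1.89 TPM. After rescaling, Atp5g2 alone had a log2 ratio of the second to the first of -3.16, and the sum of Atp5g2 and its copies 0.09. The sum was 51.4 ± 12.4 TPM in the first quantification, still below Atp5g3.

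Apart from Atp5g2 the quantifications differed little. After rescaling, 70 of 72 members at a mean of 5 TPM or more had a second value within 0.8 to 1.25 times the first. Only Atp5g2 lay under 0.8, against 2.01% of all such genes, and only Ndufab1 over 1.25, against 6.36%. Ndufab1 had a log2 ratio of 0.48, followed by Cox7b at 0.30, Ndufb4 at 0.26, Uqcrc2 at 0.25 and Ndufv2 at 0.20. On the low side Atp5b had -0.30, Uqcrfs1 -0.13 and Atp5a1 -0.11. Before rescaling, the members' median in the second quantification was 17.0 TPM.

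**Figure D5:**
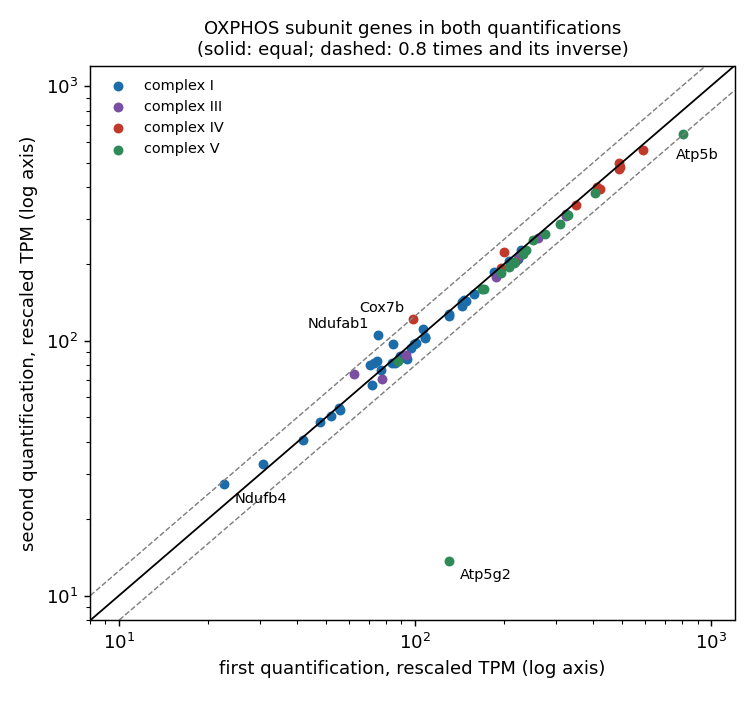
Mean rescaled TPM of the 72 members at a mean of 5 TPM or more in the first (horizontal) and second (vertical) deposited quantification, both on log axes, coloured by complex; the solid line marks equal values and dashed lines 0.8 and 1.25 times. Atp5g2 lies far below the line with a log2 ratio of -3.16, and Ndufab1 above the upper dashed line.

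Some members share exon bases with a neighbour on the other strand. Of the members, 15 overlap a gene at 1 TPM or more on the opposite strand, among them Ndufb5 with Mrpl47 over 530 bases and Atp5j with Gabpa over 175 bases. The share over all genes was not computed, so the count does not set members apart. The 15 include Ndufa4l2, which had no expected count. Gabpa encodes an ETS-family subunit of NRF2, a known activator of such genes, and had 9.08, 7.72 and 6.77 TPM. Whether counting used the strand is not given in the sources used here, so reads in these overlaps could belong to either gene. The second row named Atp5o, with no expected count, overlaps the first Atp5o row over 130 bases on the same strand.

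Relative to the protein-coding pool, members were even between libraries. Over members at a mean of 1 TPM or more, the median coefficient of variation (SD over mean of rescaled TPM) was 7.03%, against 12.2% over all such genes. At a mean of 10 TPM or more, 53 of 70 members had a coefficient under 10%, against 48.4% of all such genes, where the median was 10.2%. By complex the median was 4.98% for complex III, 6.54% for complex I, 8.65% for complex IV and 10.7% for complex V. Atp5j2 was the steadiest with 169, 168 and 167 rescaled TPM.

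The most variable members were not all highest in the same library. Ndufa5 had 116, 173 and 145 rescaled TPM, highest in replicate 2. Atp5l had 490, 368 and 360 rescaled TPM and Atp5g2 154, 124 and 114, both highest in replicate 1. Ndufa2, at 171, 135 and 133 rescaled TPM, and Atp5mpl, at 279, 209 and 264, were also highest in replicate 1, whereas Ndufs1 was highest in replicate 3 with 36.1, 41.4 and 48.1. Of the 74 members at 1 TPM or more, 34 were highest in replicate 1, 20 in replicate 2 and 20 in replicate 3, against 24.6%, 37.2% and 38.2% of all such genes. The members' shares were 45.9%, 27.0% and 27.0%. Over all genes at a mean of 10 TPM or more, nearer the members' level, they were 32.4%, 39.5% and 28.2%. At that level the share for replicate 3 was close to the members' own. By transcript length, 14 of 27 members under 600 bases, 16 of 30 of 600 to 1000 bases and 4 of 17 over 1000 bases were highest in replicate 1; the share over all genes of these lengths was not computed. Replicate 1 was also the shallowest library and the one with the largest protein-coding share of TPM, whose part in this was not tested.

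Nuclear-encoded and mitochondrial-encoded subunits differed in how replicate 3 stood to the other libraries. The difference of replicate 3 from the mean of replicates 1 and 2 in log2(rescaled TPM + 1) had a median of 0.02 over members, 0.06 over all protein-coding genes and 1.46 over the 13 mitochondrial-encoded subunit genes. mt-Atp8, the highest of these by mean, had 457, 91.2 and 1319 TPM, and mt-Nd1 of complex I 77.3, 112 and 235 TPM. mt-Atp8 is only 204 bases long and had 503, 280 and 2129 counts. mt-Co1, close to it with a mean of 610 TPM, had 25086, 73078 and 88311 counts. mt-Co2 was lowest with 9.40, 0 and 7.94 TPM, while Gm28661, a copy on chromosome 1 that holds its sequence, was listed at 313, 361 and 773 TPM. In the first quantification copies on chromosome 1 also held 90.4% of the sum for mt-Atp6, 73.0% for mt-Co3 and 49.5% for mt-Nd3. For mt-Co1 they held 33.4% and for mt-Nd4l 30.5%. The second quantification gave other shares, with 9.57% for mt-Atp6 and 0% for mt-Nd4l. There the copies held 63.2% for mt-Co3, 31.6% for mt-Nd3, 36.2% for mt-Co1 and 94.2% for mt-Co2. As listed, levels of nuclear-encoded and mitochondrial-encoded partners of a complex therefore stood in no fixed ratio across the libraries.

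Complex II and cytochrome c, not members by name, lay within the members' range. Sdha, the flavoprotein of succinate dehydrogenase, had 42.4, 32.3 and 35.6 TPM, and Sdhb, its iron-sulfur protein, 63.6, 50.6 and 65.3 TPM. The membrane anchors Sdhc and Sdhd had 27.3 ± 2.65 and 36.5 ± 4.72 TPM. Cycs, somatic cytochrome c, had 19.9, 13.2 and 17.8 TPM and the testis form Cyct had no expected count, where 3 counts would have been 0.15 TPM or less. In TPM Cycs thus lay below the median of complex I, as did Cyc1. By TMM-scaled CPM, with no length correction, the order turned round, with 84.0 for Cycs and 34.7 for Cyc1 against a complex I median of 22.3.

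In TPM, assembly factors mostly stood lower than the subunits they build in. Of 46 checked, 41 reached 1 TPM in all libraries, and their median was 4.28 ± 0.334 TPM, against 34.3 ± 2.97 TPM for the members. Cox17, the copper chaperone of complex IV, was highest with 98.4, 83.4 and 87.4 TPM, at the level of complex IV subunits. By TMM-scaled CPM Coa5, at 55.5 ± 12.0 TPM, was instead the highest with 351, against 37.5 for Cox17. That value lay above those of all members but Atp5b. Pet117 had no expected count, where 3 counts would have been 0.138 TPM or less. Of the factors that control these genes, Ppargc1a, the coactivator PGC-1 alpha, had no expected count, where 3 counts would have been 0.0231 TPM or less, and was listed at 0.00307, 0.00287 and 0.0342 TPM in the second quantification. Its relative Ppargc1b had 0.59, 0.85 and 0.85 TPM. Pprc1, the third of the family, had 4.90 ± 1.14 TPM. The nuclear receptor gene Esrra had 12.1, 7.69 and 11.2 TPM, and Gabpb1, Yy1 and Nrf1, which encode DNA-binding factors or their partners, had 7.72 ± 1.81, 6.36 ± 0.427 and 4.01 ± 0.551 TPM. Tfam, Tfb1m, Tfb2m and Polrmt, of mitochondrial transcription, lay between 1.50 and 3.44 TPM on average.

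Names of the same families that the rule leaves out were mostly silent. Of 13 such rows, 9 had no expected count. Besides Ndufb4c, Ndufb1-ps stood out with 56.1, 38.1 and 41.0 TPM. It is annotated as a bidirectional promoter lncRNA, and its level would place it among the higher complex I genes.

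Promoters of members were searched for the letters of factors known to act on such genes. RefSeq windows on GRCm38.p6 from 250 bases before to 50 after the start were held for 64 of the 81 symbols. A gene was counted when any of its windows held the letters, since some genes have several. The NRF1 consensus stood in 15 of the 64 (23.4%), against 13.1% of protein-coding genes at 1 TPM or more with a window and 5.19% of all genes with one. The ETS letters CCGGAAG stood in 14 (21.9%), against 23.5% and 9.93%. The longer YY1 consensus stood in 5 (7.81%), against 3.01% and 0.995%, and its shorter form ATGGCGG, which lies inside it, in 10 (15.6%), against 10.9% and 4.69%. Both strands were searched, and a match is a description of letters only. GC content differed too, with medians of 57% for members, 61% for expressed genes and 52.7% for all.

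By complex, the NRF1 consensus stood in the windows of 7 of 33 complex I genes, 1 of 5 of complex III, 1 of 13 of complex IV and 6 of 13 of complex V. In Ndufa6, Uqcrc1, Atp5g3 and Atp5o it lay only after the start. In complex IV the ETS letters stood in the windows of Cox6a1, Cox6b1 and Cox8a. NRF1 and ETS matches stood together in the windows of Cox6a1, Atp5h and Atp5k. Parts of the windows of Cox6a1 (chr5:115348959-115349128, minus strand) and of Atp5h (chr11:115419920-115420069, minus strand), are shown because they hold both kinds, in capitals; the ETS letters lie on the other strand and read CTTCCGG.
Cox6a1, bases -170 to -1: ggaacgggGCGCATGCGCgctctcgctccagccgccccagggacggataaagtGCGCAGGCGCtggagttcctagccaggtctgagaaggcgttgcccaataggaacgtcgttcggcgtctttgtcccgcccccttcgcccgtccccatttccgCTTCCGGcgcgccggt
Atp5h, bases -150 to -1: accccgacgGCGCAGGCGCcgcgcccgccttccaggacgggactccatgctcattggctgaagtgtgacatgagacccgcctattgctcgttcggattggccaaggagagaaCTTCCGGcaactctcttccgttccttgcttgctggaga
Cox6a1 had 115, 119 and 113 TPM and Atp5h 85.0, 71.8 and 77.4 TPM.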

How the data were processed

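Total RNA of the cytosolic fraction was sequenced in 3 libraries of 1 group. The authors deposited expected counts and TPM per gene, expected counts, TPM and percent of the gene's abundance per transcript, and a second set of estimated counts and TPM per transcript, per the file headers. Genome mm10 and annotation M21 are named in the deposited notes; tool names were not given in the sources used here. Deposited TPM are scaled over all rows, 26345 non-gene rows included. Intervals are SD over libraries, and depth limits genes near 0.

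The second set was summed per gene. Expected counts were rounded for TMM scaling (edgeR 4.0.16) and for size factors (DESeq2 1.42.0) used as an alternative. Logs took a pseudocount of 1. Copies were found from shared runs of 31 bases. Python 3.11.15, pandas 2.3.3, numpy 2.4.6 and R 4.3.3 were used, and steps were tested on simulated data. Members, lists and rules were chosen with earlier results of these data known. Named are the 4 highest and the lowest member per complex, isoform families, members under 1 TPM, the 6 most variable at 10 TPM or more, the 5 most different in each direction between quantifications, and the related lists; further genes are named because of their values. Some genes that these rules pick are left out of the text. Libraries correlated at 0.981 to 0.986 (Pearson, log scale, 8956 genes).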

Additional observations from a re-analysis of the deposited data

How the results depend on the processing

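No paired analysis was possible because there is 1 group. Of the alternative values, 76 lay within 1 SD of the main value (or 1.5 times, for counts), 33 lay outside it, and no difference from complex I changed sign. The 33 include all medians in rescaled TPM, TMM-scaled CPM and the second quantification. These are on other scales than deposited TPM, so their place outside says nothing about how stable the medians are. The same holds for the share of expected counts, another measure. The order of complexes III and IV did turn with the setting, as their medians show. Medians of all members and of complexes I, III, IV and V were 17.0, 13.1, 27.4, 27.8 and 28.7 TPM in the second quantification, 121, 91.4, 205, 197 and 219 in rescaled TPM, and 29.3, 22.3, 46.7, 47.1 and 47.7 in TMM-scaled CPM. With members of at least 1 TPM in all libraries they were 41.3 for all and 107 for complex IV, which then lay 1.99 above complex I on the log2 scale. With protein_coding transcripts only, an alternative added after seeing the data, the medians were 28.9 for all and 23.4 for complex I. The log2 difference of complex III from complex I was 1.00 in the second quantification and 1.03 in TMM-scaled CPM, and that of complex V 1.05 in TMM-scaled CPM. The members' share was 1.31% in the second quantification, 1.33% on coding transcripts and 0.422% of expected counts. The median coefficient of variation was 12.4% on deposited TPM and 3.92% to 8.15% with 1 replicate left out, lowest without replicate 1. The difference of replicate 3 from the others over members was 0.0231, and turned to -0.101 on deposited TPM, -0.102 in TMM-scaled CPM and -0.0522 in the second quantification; it was 0.000351 to 0.00889 with replicate 1 or 2 left out, so its sign depends on the scaling. The cause of these differences was not tested. Deposited TPM carry the larger protein-coding share of replicate 1, whose part in them was not tested either. The added alternatives of summing copies and of grouping by known role (Ndufa4 and Ndufa4l2 to complex IV, Cox7a2l and Atp5s left out) moved no median and no difference from complex I beyond 1 SD.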
